A study of Mus musculus with 6 samples.

Results

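The Hox cluster genes are examined here for DNA methylation in mouse GS cells, a culture of spermatogonia in which some cells are spermatogonial stem cells. The genes were chosen by symbol alone, as Hoxa, Hoxb, Hoxc or Hoxd followed by a number, and a CpG site was assigned to the gene with the closest transcription start site (TSS), at any distance. The table held 4139 such sites for 39 Hox genes, out of 2268080 sites and 31751 genes. Of these, 1941 sites (46.9%) had at least 10 reads in each of the 6 samples, against 30.1% of the sites of the whole table, and they belonged to 38 Hox genes. No such site was assigned to Hoxd3.

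Methylation was measured by reduced representation bisulfite sequencing (RRBS), which reads CpG-rich restriction fragments and reports the share of reads with an unconverted cytosine, in 3 replicates of Space GS cells and 3 of Ground GS cells. Both groups carried the genotype DBA/Tg14(act-EGFP-OsbY01) and were cryopreserved for 6 months, the Space GS cells on the International Space Station and the Ground GS cells on Earth. Both were thawed and cultured on mouse embryonic fibroblast feeder cells before the DNA was taken. Nothing in the labels says whether the 3 replicates came from separate cultures. The p-values below therefore set the difference between groups against the spread between these samples, which may be technical. The comparison asks whether storage in space changed the methylation of GS cells. Reads summed over all sites ranged from 28535973 to 33743845 per sample, and the median coverage of the 1941 Hox sites ranged from 28 to 33 reads.

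Hox genes encode homeodomain transcription factors that give cells their position along the body axis. They lie in clusters in which the order of the genes follows the order in which they are used from head to tail, and genes of the same rank in different clusters are called a paralog group. In cells that do not use them, the clusters are typically held silent by Polycomb proteins, and their dense CpG islands typically stay free of DNA methylation. The 4 clusters differed in size and coverage. HoxA (chromosome 6) spanned 102491 bp between its outermost TSSs and had 613 common sites for 11 genes. HoxB (chromosome 11) spanned 171436 bp with 422 sites for 10 genes. HoxC (chromosome 15) spanned 97828 bp with 384 sites for 9 genes, and HoxD (chromosome 2) spanned 94670 bp with 522 sites for 8 genes. Positions are those of the mm39 build named in the submitters' processing notes.

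The CpG content of these promoters is shown by 4 RefSeq sequences (build GRCm38.p6, 250 bases before the start to 50 after it), chosen because the results below turn on them or, for Hoxa13, because it held the most CpGs. Each is written in the direction of transcription with every CG in capitals. Hoxa13 (chr6:52260831-52261130, minus strand), a gene of limb and genital development, held 45 CGs, a number reached by 1.93% of all 32851 promoters in the RefSeq table. Hoxa5 (chr6:52204538-52204837, minus strand), which is needed for lung development, held 29, Hoxa6 (chr6:52208623-52208922, minus strand) held 26 and Hoxd12 (chr2:74674763-74675062, plus strand) held 13.
Hoxa13: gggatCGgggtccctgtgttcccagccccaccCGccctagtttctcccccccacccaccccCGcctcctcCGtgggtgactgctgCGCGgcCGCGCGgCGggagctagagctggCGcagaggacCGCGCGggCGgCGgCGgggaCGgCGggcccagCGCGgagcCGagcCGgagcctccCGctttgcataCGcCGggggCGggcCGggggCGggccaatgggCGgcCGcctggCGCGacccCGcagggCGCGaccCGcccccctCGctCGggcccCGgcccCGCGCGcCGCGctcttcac
Hoxa5: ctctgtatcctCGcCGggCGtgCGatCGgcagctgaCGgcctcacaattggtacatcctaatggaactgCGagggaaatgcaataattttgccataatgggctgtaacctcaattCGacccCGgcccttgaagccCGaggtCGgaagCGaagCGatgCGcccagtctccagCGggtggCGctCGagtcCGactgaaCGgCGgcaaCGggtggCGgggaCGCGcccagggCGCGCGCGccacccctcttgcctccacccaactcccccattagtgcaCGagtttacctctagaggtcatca
Hoxa6: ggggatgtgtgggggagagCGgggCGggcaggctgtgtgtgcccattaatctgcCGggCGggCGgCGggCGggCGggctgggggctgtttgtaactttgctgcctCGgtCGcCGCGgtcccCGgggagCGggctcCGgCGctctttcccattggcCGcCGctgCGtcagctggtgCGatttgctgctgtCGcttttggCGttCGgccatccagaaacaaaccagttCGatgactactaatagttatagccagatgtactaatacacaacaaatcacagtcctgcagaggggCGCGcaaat
Hoxd12: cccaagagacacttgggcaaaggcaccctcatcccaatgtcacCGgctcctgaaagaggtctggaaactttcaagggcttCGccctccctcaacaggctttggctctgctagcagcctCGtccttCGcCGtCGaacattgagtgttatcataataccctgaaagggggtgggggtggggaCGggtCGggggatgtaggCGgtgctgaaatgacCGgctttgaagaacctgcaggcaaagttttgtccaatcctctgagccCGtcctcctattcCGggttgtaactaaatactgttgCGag
The 24 entries for 22 of the 39 Hox genes held a median of 14.5 CGs, against 7 over all promoters. The build differs from that of the methylation table, so no CG in these lines was matched to a site. Counted around the table's own TSSs, the same window held 12 common sites for Hoxa13, with a level of 0.305% ± 0.370 (SD, n = 3) in the Space group and 0.922% ± 0.305 in the Ground group. It held 4 sites for Hoxa5, at 2.46% ± 4.25 and 0.940% ± 0.867, and 11 sites for Hoxa6, at 4.07% ± 1.51 and 2.30% ± 0.925. No level of this window is given for Hoxd12. Its regions of common sites lay 10 to 573 and 833 to 952 bp after the listed TSS, mostly outside the window.

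The Hox sites were almost free of methylation in both groups. Averaged over sites, Space GS cells were at 3.81% ± 0.321 (SD, n = 3) and Ground GS cells at 3.73% ± 0.472, against 20.1% and 19.97% over all 681804 common sites of the table. Of the 1941 Hox sites, 89.95% had a mean level under 5%, and 191 had no methylated read in any sample. Only 29 Hox sites (1.49%) had a mean level of 50% or more, against 19.3% of all common sites. The 29 were spread unevenly, with 19 assigned to genes of HoxB, 9 to HoxC, 1 to HoxA and 0 to HoxD. Some lay outside the clusters themselves. Those assigned to Hoxb1 were 17842 to 26483 bp past its TSS, and one assigned to Hoxc13 was 53243 bp before its TSS. The mean level ranked HoxB, HoxC, HoxA and HoxD in that order in all 6 samples. The median site level gave another order, at 2.21% in HoxA, 1.85% in HoxB, 2.40% in HoxC and 1.90% in HoxD. Within 1 kb of a TSS the mean levels lay close together, with HoxD the highest and HoxB the lowest. They were 2.13% in HoxA, 2.09% in HoxB, 2.18% in HoxC and 2.31% in HoxD. The ranking thus depended on which sites were counted.

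With the minimum of 10 reads, every cluster mean differed between the groups by less than the replicate SD pooled over both. In HoxC the difference of 0.169 points was above the SD of the Space replicates alone (0.161). Over all Hox sites the level was 3.91%, 4.08% and 3.45% in Space replicates 1, 2 and 3, and 4.27%, 3.49% and 3.42% in Ground replicates 1, 2 and 3. The groups overlapped, with a difference of 0.0847 percentage points (exact permutation test, two-sided, p = 0.9, where 3 against 3 cannot go below 0.1). HoxA was at 2.98% ± 0.393 (n = 3) in Space and 3.13% ± 0.222 in Ground GS cells, a difference of -0.155 points. HoxB was at 5.90% ± 0.854 and 5.49% ± 0.856, a difference of 0.409 points. HoxC was at 4.94% ± 0.161 and 4.77% ± 0.784, and HoxD at 2.28% ± 0.103 and 2.24% ± 0.320. The exact permutation p was 0.8, 0.6, 0.8 and 0.8 for HoxA to HoxD, and 0.8 for each after Benjamini-Hochberg adjustment over the 4. These differences depended on the coverage minimum. With 5 reads the difference over all Hox sites was -0.290 points and that of HoxA was -0.485 points, and with 20 reads that of HoxD was 0.531 points. In the last of these, as in HoxA with 5 reads, the groups did not overlap (exact permutation p = 0.1, the smallest possible, before any adjustment). Without Space replicate 2 the difference over all Hox sites was -0.0470 points.

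**Figure D1:**
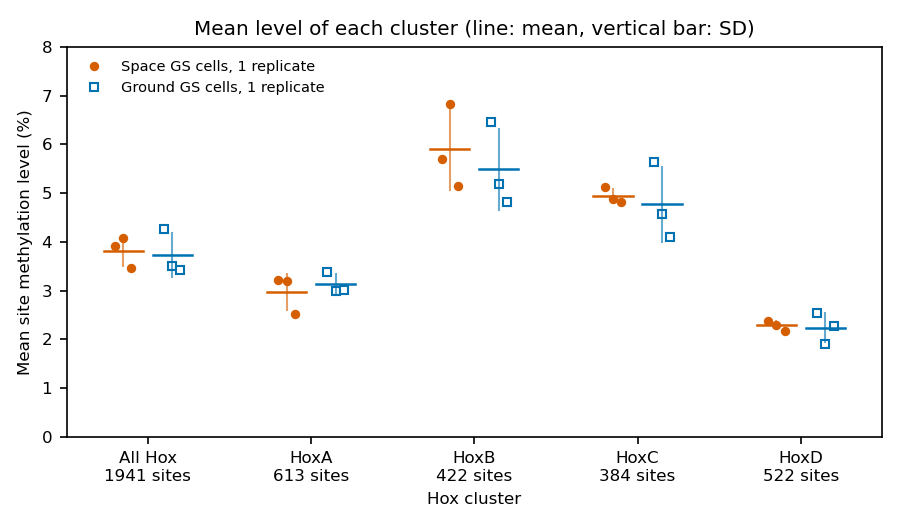
The mean site methylation level (percent) of all Hox sites and of each cluster, with 1 point per replicate, a horizontal line at the group mean and a vertical bar of 1 SD. The Space and Ground points overlapped in all 5 columns, and HoxB had the highest mean and HoxD the lowest.

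Low methylation at Hox sites reached well beyond 1 kb from the listed TSSs. Within 1 kb of a TSS the mean level of the 1017 Hox sites was 2.19%, close to the 2.46% of all genes. Beyond 1 kb it was 5.51% over 924 Hox sites, against 43.6% over all genes. A list of other developmental regulators, transcription factor genes that also tend to be Polycomb targets, stood between them at 14.2% beyond 1 kb. By distance, the Hox level was 5.89% at 1 to 2 kb, 4.27% at 2 to 5 kb, 7.01% at 5 to 10 kb and 9.57% farther out, where 53 sites of 3 genes were left. Over all genes it was 11.2%, 29.6%, 40.8% and 55.6% in the same intervals. For the other developmental regulators it was 2.75%, 7.08%, 12.02% and 36.6%, so Hox sites were the more methylated of these lists at 1 to 2 kb and the less methylated from 2 kb on. These are descriptions over sites, which share fragments and are not replicates, and the samples stood close together. At 2 to 5 kb the Hox level lay between 3.70% and 5.20% in the 6 samples, and that of all genes between 29.3% and 30.0%. Since methylation fell with the density of CpGs in all genes, the sites beyond 1 kb were also split by how many common sites lay within 100 bp, the site itself included. With 1 or 2, Hox sites averaged 22.8% (56 sites) against 75.6% over all genes. With 3 to 5 they averaged 9.03% against 58.9%, with 6 to 10 they averaged 4.21% against 28.5%, and with 11 or more 1.93% against 3.06%. The Hox level was the lower at each of the 4 densities. For the other developmental regulators it was 54.7%, 27.5%, 7.93% and 2.07%, so at the highest density they stood close to the Hox sites. Distance was not matched in this split. Of the sites beyond 1 kb, 166490 of 291236 lay over 10 kb out in all genes, against 53 of 924 Hox sites. Distance was counted from 1 listed TSS per gene, so sites beyond 1 kb can lie close to another start. RefSeq (GRCm38) gives Hoxd11 windows beginning at 74679308 and 74682073. All 93 Hoxd11 sites, 2117 to 3715 bp past the listed TSS, counted as beyond 1 kb, at a mean of 1.80%. The effect of such sites on the level was not tested.

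**Figure D2:**
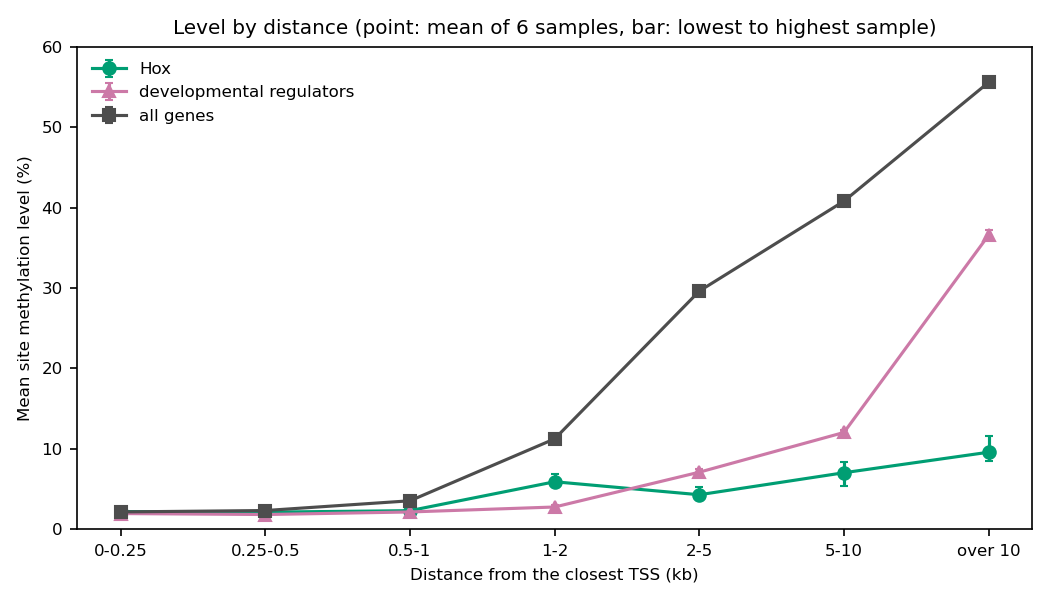
Mean site methylation level (percent) by distance from the closest TSS (kb), for Hox genes, other developmental regulators and all genes, with the mean of the 6 samples and a bar from the lowest to the highest sample. The line of all genes rises from 2.13% to 55.6%, while the Hox line ends at 9.57%.

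Every Hox promoter with enough sites to be measured was lowly methylated. A promoter level is the methylated share of the reads summed over common sites within 1 kb of the listed TSS, and 31 Hox genes had at least 3 such sites. For some genes, Hoxa7, Hoxa9 and Hoxd4 among them, this TSS differs from the RefSeq start, as described below. Their values may not be those of the main promoter. All 31 were under 5%, with a median of 2.30% and a range from 0.701% (Hoxa7) to 4.56% (Hoxd12). Among all 14373 promoters with 3 sites, 93.5% were under 5% and the median was 1.82%. Of the remaining genes, Hoxa3, Hoxb2, Hoxb8, Hoxc4, Hoxd3 and Hoxd11 had no common site assigned within 1 kb of a listed TSS and Hoxb3 and Hoxb6 had 1 each. By rank, the promoters of the anterior paralog groups 1 to 4 had a median of 1.63% (7 genes). The central groups 5 to 8 had 2.32% (9 genes) and the posterior groups 9 to 13 had 2.45% (15 genes). Rank was taken from the gene name, not from the position of the listed TSS. The central median was the value of Hoxc5, whose listed TSS lay between those of Hoxc10 and Hoxc9. The anterior median was the value of Hoxd4. The site means of the 3 classes were 3.51% ± 0.0959 (Space) and 3.44% ± 0.799 (Ground) for the anterior, 3.58% ± 0.513 and 3.68% ± 0.470 for the central, and 4.05% ± 0.342 and 3.87% ± 0.401 for the posterior groups.

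In HoxA the highest promoter was that of Hoxa6, a gene of the thoracic skeleton, which stood at 4.16%, 4.55% and 4.81% in Space replicates 1 to 3 and at 3.21%, 2.74% and 3.07% in Ground replicates 1 to 3 (25 sites, 842 to 1106 reads). All Space values lay above all Ground values. The lowest, around its listed TSS, was Hoxa7, also of the thoracic region, at 0.794%, 0.472% and 1.39% in Space and 0%, 1.55% and 0% in Ground GS cells. The zeros were 0 of 234 and 0 of 230 reads, which allow levels of up to 1.28% and 1.30% by counting error alone. In HoxB the highest was Hoxb7, at 3.74%, 2.59% and 1.74% in Space and 4.03%, 1.87% and 1.73% in Ground GS cells, with full overlap. The lowest was Hoxb4, known for its part in blood stem cells, at 1.25%, 1.62% and 1.34% in Space and 0.466%, 0.624% and 0.778% in Ground GS cells, with the Space values all above. In HoxC, Hoxc11 was highest at 1.84%, 2.67% and 3.22% in Space and 5.20%, 3.51% and 1.76% in Ground GS cells, and the groups overlapped. Hoxc12 was lowest at 0.376%, 0% and 0% in Space and 4.55%, 0.549% and 0.493% in Ground GS cells. Its zeros were 0 of 273 and 0 of 175 reads (up to 1.10% and 1.71%), and the difference of -1.74 points was -0.396 without Ground replicate 1. In HoxD, Hoxd12, a gene of limb patterning, was highest at 4.76%, 4.72% and 5.02% in Space and 3.34%, 3.97% and 5.54% in Ground GS cells. Hoxd8 was lowest at 1.58%, 0.991% and 1.18% and at 2.35%, 0.581% and 1.196%. Both overlapped between the groups.

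**Figure D3:**
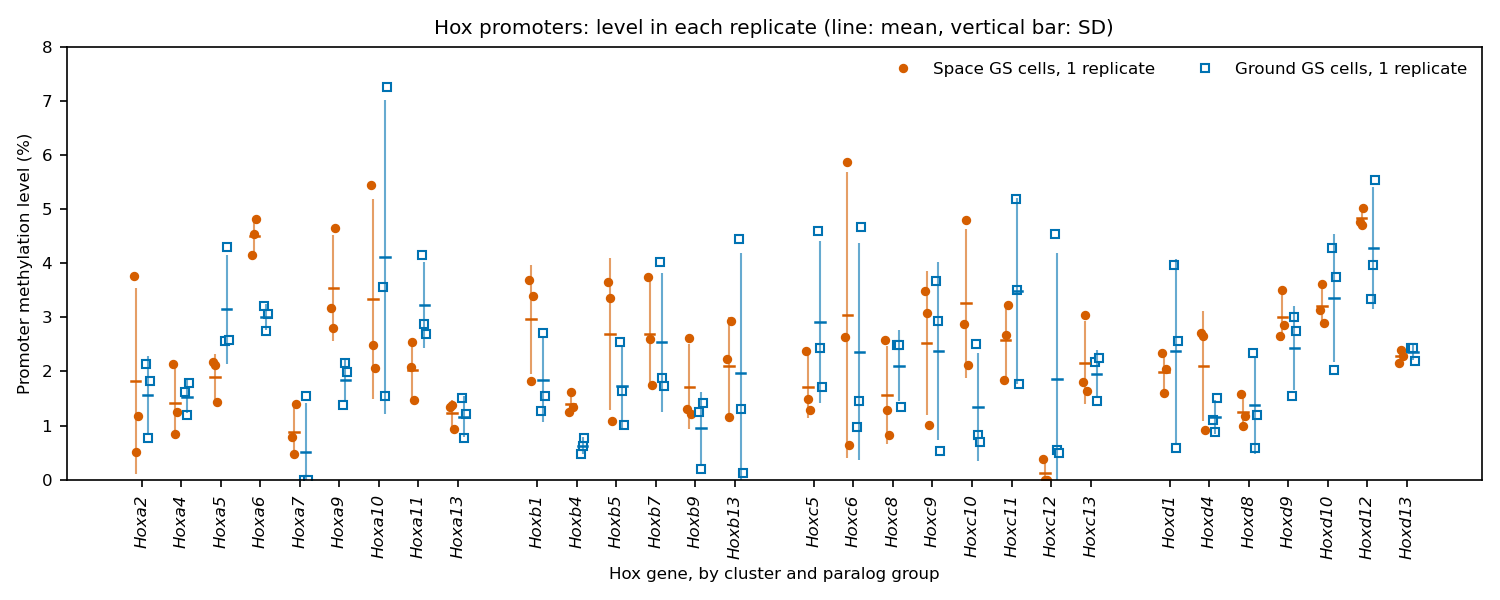
Promoter methylation level (percent) of 30 Hox genes with at least 3 common promoter sites, ordered by cluster and paralog group, with 1 point per replicate, a horizontal line at the group mean and a vertical bar of 1 SD. All group means lie under 5%, and the single highest replicate is Ground replicate 3 at Hoxa10 (7.26%).

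No Hox promoter passed the test between Space and Ground GS cells. Of the 31, 18 had the higher mean in the Space group and 13 in the Ground group, and the widest difference was 1.92 points (Hoxc10, which patterns the lumbar region). A quasi-binomial test, moderated with limma, called 0 of 31 after adjustment over all promoters (background 0%), and edgeR's quasi-likelihood test also called 0. At an unadjusted p under 0.05 the count was 0 of 31, against 5.35% of all 13888 promoters tested. The groups did not overlap at 6 promoters (Hoxa5, Hoxa6, Hoxa9, Hoxa11, Hoxb4 and Hoxc12), with 3 higher and 3 lower in Space, against 9.55% of all promoters. The smallest p belonged to Hoxa5, at 2.17%, 2.12% and 1.43% in Space and 2.56%, 4.30% and 2.57% in Ground GS cells. Its means were 1.91% ± 0.415 and 3.15% ± 1.001 (n = 3), with an unadjusted p of 0.0542 and an adjusted p of 0.926 by the quasi-binomial test. Next came Hoxa11, a gene of the uterus and forearm, at 2.03% ± 0.542 in Space and 3.24% ± 0.795 in Ground GS cells (adjusted p = 0.937). Hoxa6, Hoxb9 and Hoxc12 followed, with differences of 1.501, 0.759 and -1.74 points and the same adjusted p of 0.937 by the quasi-binomial test.

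The same held over every site of a gene. All 37 Hox genes with at least 3 common sites were tested, 18 had the higher mean in the Space group and 19 in the Ground group, and 0 were called (background 0%), also by edgeR. At an unadjusted p under 0.05 the count was 0 of 37, against 5.22% of the 23021 genes tested. The groups did not overlap at 6 genes, among them Hoxa6, Hoxa11, Hoxb6, Hoxc5 and Hoxd11, against 9.78% of all genes. Hoxa11 had the smallest p, at 2.45%, 2.81% and 1.96% in Space and 3.51%, 3.39% and 3.00% in Ground GS cells over 89 sites (difference -0.896 points, unadjusted p = 0.0507 and adjusted p = 0.937 by the quasi-binomial test). Hoxd11, which acts with Hoxa11 in the forearm, was at 2.27% ± 0.490 and 1.67% ± 0.0822 over 93 sites. Hoxd4, for which all 22 sites lay within 1 kb, was at 2.10% ± 1.02 and 1.16% ± 0.318. Hoxa6, whose 25 sites also all lay within 1 kb, kept the values given above. The median level of the 37 genes was 3.02%, against 15.5% over all 23363 genes with 3 sites, and only Hoxc5 (25.4%, 8 sites) and Hoxb6 (22.1%, 20 sites) stood above 10%. Hoxc5 was at 24.8%, 22.6% and 22.5% in Space and 25.1%, 29.6% and 27.9% in Ground GS cells. Hoxb6 was at 21.6%, 20% and 20.2% in Space and 24.3%, 24.3% and 22.4% in Ground GS cells, so the Ground values were the higher in both genes, at adjusted p of 0.941 and 0.939 by the quasi-binomial test.

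Most of the methylated Hox sites lay over 1 kb from the listed TSS, in short stretches or as single sites. An exception at 94.7% lay 20 bp before the listed TSS of Hoxb3. Of the 48 Hox sites with a mean level of 20% or more, 46 lay over 1 kb from the TSS and 14 belonged to Hoxb9. Sparse surroundings were common among them, with 75.0% having at most 5 common sites within 100 bp, against 16.7% of the other Hox sites. Their coverage was lower, with a median of 16.5 reads in the least covered sample against 24 for the other Hox sites. Grouping sites no more than 100 bp apart gave 140 Hox regions of at least 3 sites, of which 123 were under 5%, 8 reached 20% and 4 reached 50%. Whether these stretches lie in exons, introns or between genes was not analysed here, since the reference annotation is of another build.

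The most methylated region lay upstream of Hoxb6 (chr11:96181978-96182009, 3 sites, all over 1 kb before the TSS), at 82.5%, 93.8% and 86.3% in Space and 90.2%, 89.6% and 91.0% in Ground GS cells. Downstream of the Hoxc5 TSS (chr15:102877191-102877332, 3 sites) the level was 84.2%, 84.6% and 84.0% in Space and 78.7%, 92.1% and 84.1% in Ground GS cells. Both were highly methylated in every sample, with overlapping groups. Downstream of the TSS of Hoxb13, a gene of the tail and prostate (chr11:96087051-96087196, 3 sites, 11 to 27 reads per site), the values were 91.4%, 88.9% and 78.0% in Space and 78.8%, 56.4% and 86.7% in Ground GS cells. The difference of 12.1 points was the widest of the 140 regions, with an unadjusted p of 0.136 and an adjusted p of 0.901 by the quasi-binomial test, and it was 3.37 points without Ground replicate 2. Downstream of Hoxc9 (chr15:102887412-102887433, 3 sites) the level was 72.1%, 75.7% and 80% in Space and 75.6%, 71.4% and 73.3% in Ground GS cells.

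The other 3 regions described here had intermediate levels. Upstream of Hoxb9, a gene of the rib cage (chr11:96155038-96155190, 9 sites, over 7 kb before the TSS and towards Hoxb13), the level was 47.9%, 66.7% and 39.4% in Space and 54.5%, 50% and 30.6% in Ground GS cells. Nearer to Hoxb9 (chr11:96159981-96160037, 3 sites) it was 27.1%, 34.6% and 24.6% in Space and 41.4%, 31.6% and 24.5% in Ground GS cells. Downstream of Hoxc12 (chr15:102846966-102847040, 4 sites) it was 27.5%, 52.8% and 53.8% in Space and 32.9%, 35.0% and 31.7% in Ground GS cells, a difference of 11.5 points in which Space replicate 1 was the lowest of the 6. The difference was 20.1 points without that replicate, 7.49 without Space replicate 2 and 6.95 without Space replicate 3. In all 7 of these regions the groups overlapped, and the replicates of 1 group differed by up to 30.3 points.

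**Figure D4:**
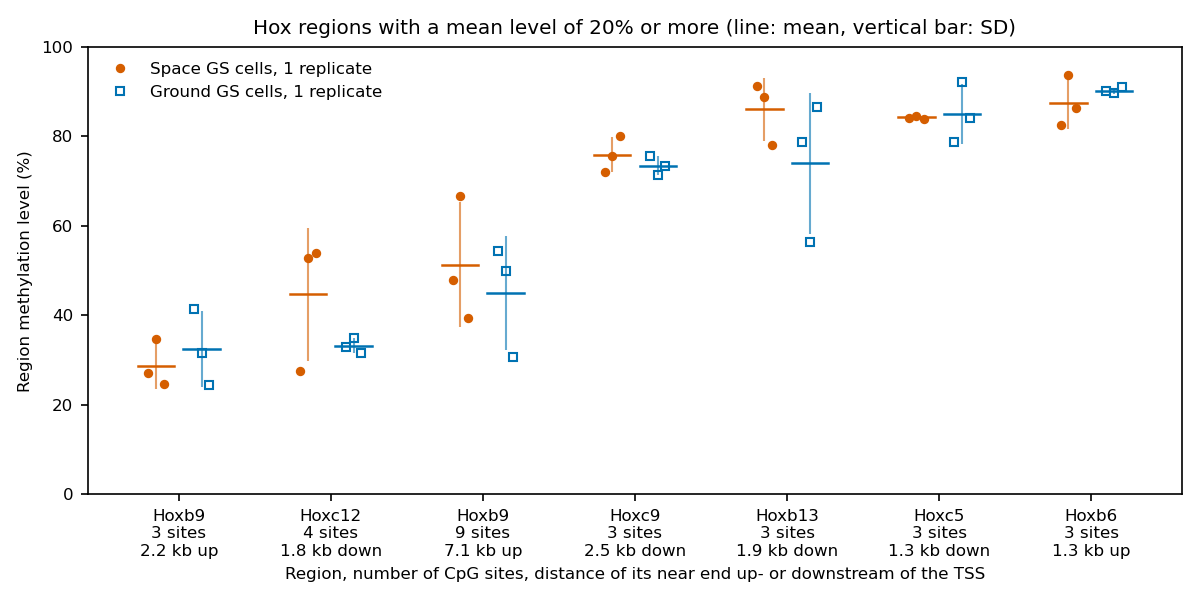
Methylation level (percent) of 7 Hox regions with a mean of 20% or more, ordered by level and labelled with the closest gene, the number of sites and the distance of the near end from the TSS. Points are replicates, lines are group means and bars are 1 SD. Space and Ground points overlap in each region, and the spread is widest at Hoxb9, Hoxb13 and Hoxc12.

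No Hox region or single site passed the test. Of the 132 regions tested, the quasi-binomial test called 0 at an adjusted p under 0.05 with over 20 points (background 0%), and edgeR called 0. At an unadjusted p under 0.05 there were 8 of 132, against 5.59% of all 44885 regions. The smallest belonged to a region of 21 sites across the TSS of Hoxd9 (chr2:74527955-74528331), some of them closest to the neighbouring Gm28793, at 2.51%, 4.22% and 3.80% in Space and 1.75%, 1.19% and 1.60% in Ground GS cells (unadjusted p = 0.00895, adjusted p = 0.881 by the quasi-binomial test). The groups did not overlap there, though the whole Hoxd9 promoter stood at 3.01% ± 0.442 and 2.43% ± 0.776. Of 191 Hox sites tested, 0 were called (background 0%), also by edgeR, and 10 had an unadjusted p under 0.05, against 5.61% of all 92042 sites tested. In simulated data the site test called only 10% of sites changed by 20 points, so it would miss most single-site changes of that size. A difference over 20 points was found at 1 Hox site higher in Space, against 0.113% of all common sites, and at 0 lower, against 0.0826%. That site lay in the Hoxb13 region (chromosome 11, position 96087136, 11 to 27 reads), at 88.9%, 100% and 78.6% in Space and 63.6%, 46.2% and 93.3% in Ground GS cells, so the groups overlapped. The difference of 21.4 points was 10.7 without Ground replicate 2 and 34.3 without Ground replicate 3, and it also fell under 20 points without Space replicate 2 (16.02) or Ground replicate 1 (19.4). At a site in the far Hoxb9 region (position 96155158, difference 17.1 points) they overlapped as well. At the site after the Hoxc5 TSS (position 102877254) the Space values of 91.7%, 95.2% and 91.7% lay above the Ground values of 70.6%, 87.5% and 75.0%. At a site upstream of Hoxa11 (position 52225432) the values were 21.7%, 25% and 21.7% against 10%, 6.67% and 11.1%, again without overlap. For both, the exact permutation p of 0.1 was the smallest that 3 against 3 allows, before any adjustment. In all, 93.1% of the Hox sites differed by at most 5 points, against 90.9% of all common sites.

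Along the clusters, the table's TSS was the outermost start of each gene and did not always follow paralog order. Hoxc5 was placed at position 102875878, between Hoxc10 and Hoxc9, and Hoxa3 at 52190316, between Hoxa7 and Hoxa6. Hoxd4 was placed at 74542273, after Hoxd8 at 74534959. In RefSeq (GRCm38) the Hoxd8, Hoxd3 and Hoxd4 windows begin at 74704365, 74711743 and 74721728. By this spacing the listed Hoxd4 TSS lies near the RefSeq start of Hoxd3. Hoxa7 (52198834) and Hoxa9 (52208069) stood farther from Hoxa5 (52181567) than their RefSeq windows do (52218524 and 52227321, against 52204538). The values under these names describe the DNA there. Hoxb3 was represented by 1 site, 20 bp before its listed TSS, with a mean of 94.7% and 92.0% to 100% in the 6 samples. Inside the spans, other genes had the closest TSS for 71 sites in HoxA, 235 in HoxB, 25 in HoxC and 194 in HoxD, and these were outside the Hox list. Their mean levels were 2.78%, 6.52%, 14.7% and 7.31%. Several are noncoding RNAs of the clusters, such as Hotair in HoxC (14.7%, 25 sites), Hoxa11os in HoxA (2.66%, 14 sites) and Haglr in HoxD (2.11%, 14 sites). With every site in the span counted, HoxA was at 3.07%, HoxB at 5.79%, HoxC at 5.67% and HoxD at 3.69%. HoxD, which had 0 Hox sites of 50% or more, held 6 such sites under other genes, 5 of them under Hoxd3os1.

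**Figure D5:**
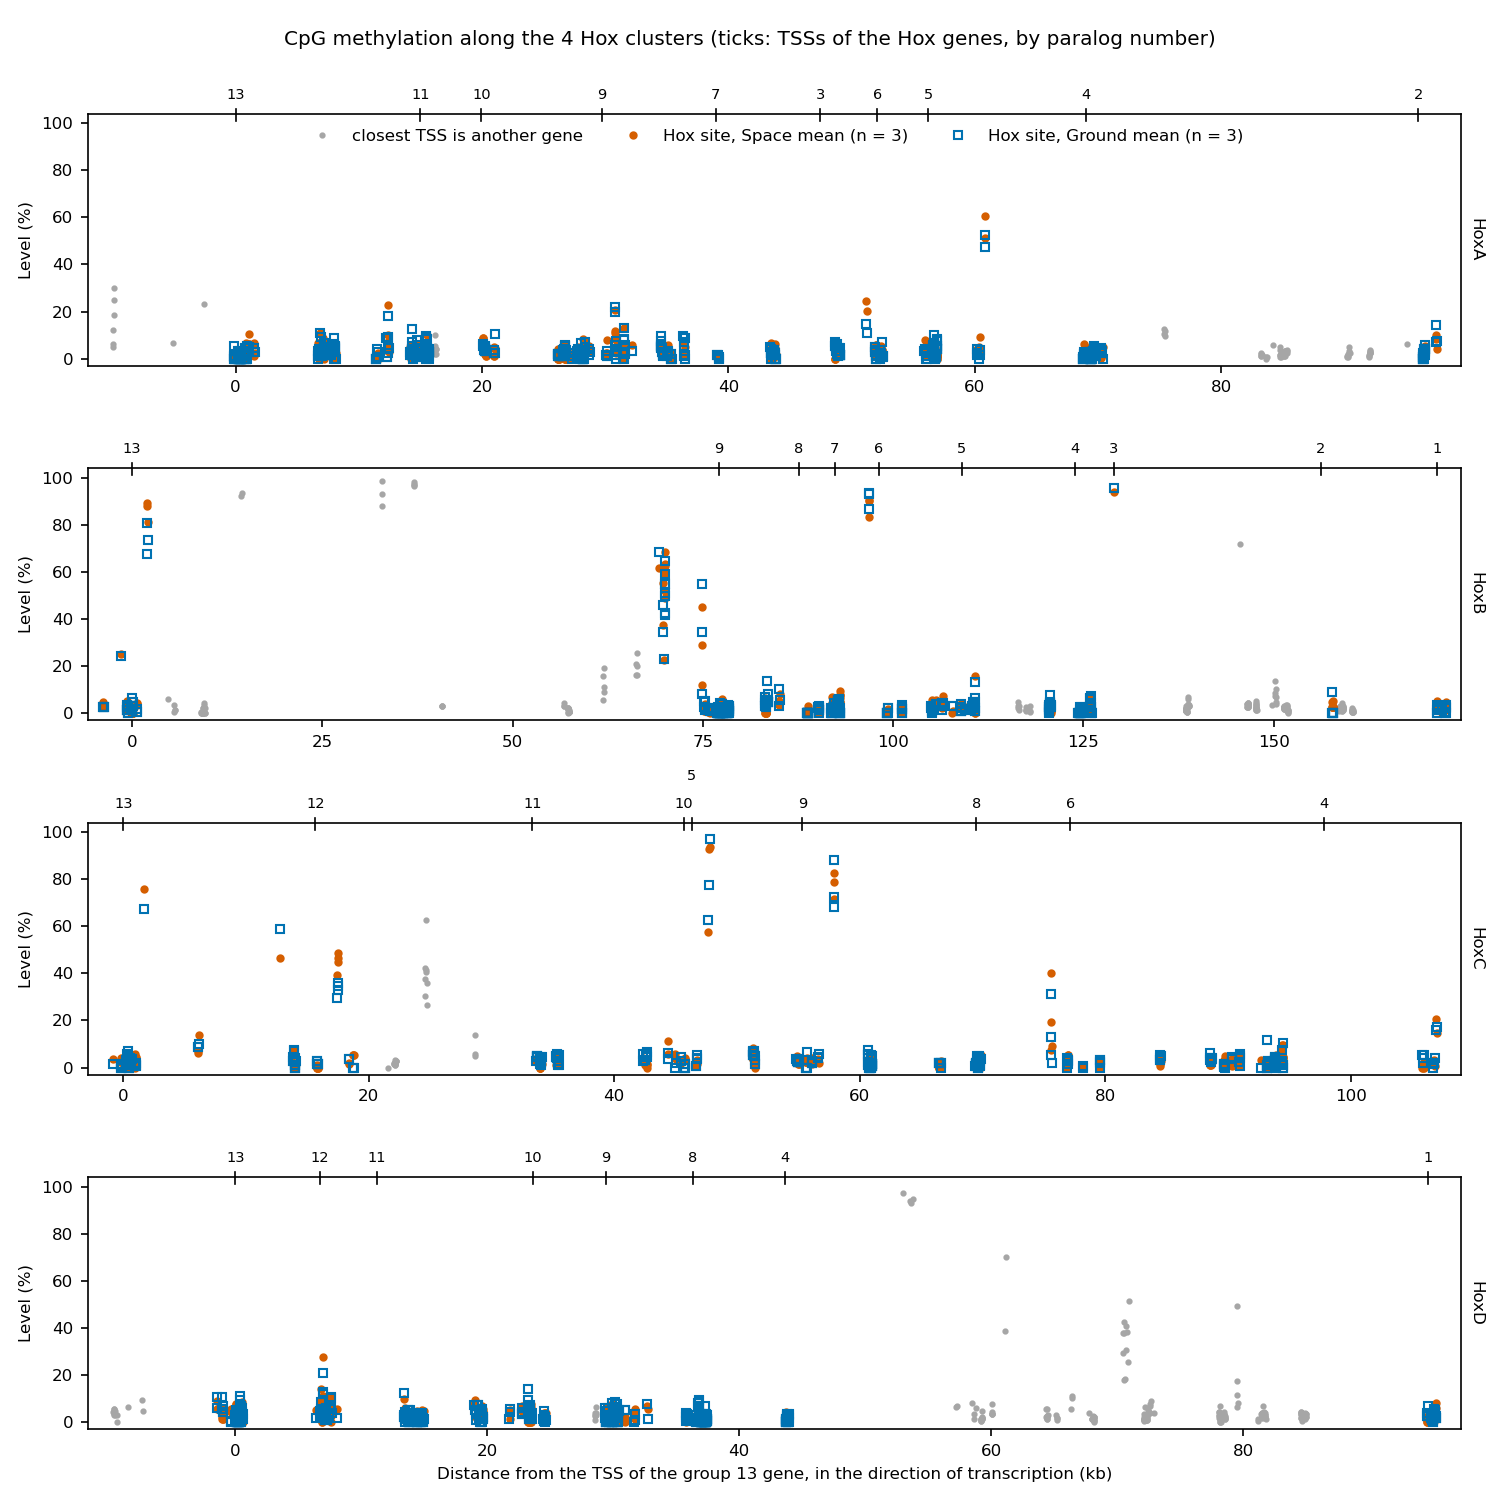
Methylation level (percent) of single CpG sites along each cluster, by distance (kb) from the TSS of the group 13 gene in the direction of transcription. Filled circles are Space means and open squares Ground means of Hox sites (n = 3), grey points are 6-sample means of sites closest to another gene, and numbered ticks mark the TSSs of the Hox genes shown. Most sites lie under 5%, and the few Hox sites of 50% or more are in HoxB and HoxC but for 1 in HoxA.

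Genes that work with or regulate the Hox genes were also lowly methylated at their promoters. Of 43 such genes, 39 had at least 3 common promoter sites, with the Space mean the higher at 20 and the Ground mean at 19. Their median was 1.73%, close to the 1.82% of all promoters. Of the 38 tested, 0 were called, against 0% of all promoters, and 1 had an unadjusted p under 0.05, against 5.35%. It was Pbx2, whose product binds DNA together with HOX proteins, at 4.13%, 3.75% and 2.89% in Space and 1.93%, 1.97% and 0.142% in Ground GS cells (adjusted p = 0.916 by the quasi-binomial test). The Polycomb genes, which keep Hox clusters silent, had 14 of 15 measured, a median of 1.56% and values from 1.31% (Suz12) to 2.48%. The trithorax genes, which keep them active, had 5 of 7 measured and a median of 1.67%. The homeobox genes next to 2 of the clusters were higher, with Evx1 beside HoxA at 11.7% ± 3.77 in Space and 9.93% ± 0.637 in Ground GS cells and Evx2 beside HoxD at 3.85% ± 1.76 and 4.94% ± 3.26. As a check of the labelled cell type, 7 of 8 germ cell genes whose promoters are methylated in somatic cells were measured, and all stood between 0.740% and 3.23%. Of all promoters, 93.5% were under 5%, so a low level was not particular to these genes. Of 8 fibroblast genes only Twist1 was measured, at 0.731% ± 0.246 in Space and 1.81% ± 0.286 in Ground GS cells (adjusted p = 0.916 by the quasi-binomial test), so the share of feeder cells was not tested.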

How the data were processed

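RRBS libraries of 3 Space and 3 Ground GS cell samples were analysed from 1 deposited table. Per the labels, the reads were processed with Trim Galore, Bismark (version 0.24.2) and methylKit on build mm39. For each CpG the authors deposited the coverage as a count of reads and the methylation level as a percent, with the closest gene and its TSS. Coverage times percent gave the methylated reads, which lay within 0.000266 reads of a whole number. Each row was 1 CpG, and the table had no 2 rows 1 base apart. Whether PCR duplicates were removed is not given in the sources used here, so limits from counts cover counting error only. The RefSeq reference is GRCm38, and no coordinate was converted.

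Common sites had at least 10 reads in all 6 samples. Promoters were sites within 1 kb of the TSS, and regions were runs of 3 or more sites with gaps of at most 100 bp. Features with at least 10 methylated and 10 unmethylated reads (single sites with a mean level of 5% to 95%) were fitted with a quasi-binomial test, its dispersion between replicates moderated with limma (3.58.1) in R (4.3.3), and adjusted by Benjamini-Hochberg over the whole table at 0.05. edgeR (4.0.16) was an alternative. Single values were compared by the exact permutation test. The quasi-binomial tests were checked on simulated data with 200 features changed by a known amount. At an adjusted p under 0.05 and a change of 20 points, 10% of changed sites were called. For promoters, genes and regions it was 97.5%, 95% and 93%. The region share counts the adjusted p alone, while a Hox region also had to differ by over 20 points to be called. A true change of 20 points can fall short of that cut, so 93% is only an upper limit for the region call. The shares were not split by starting level, so they do not give the power for highly methylated regions such as those of Hoxb6 and Hoxc5. With a change of 40 points, 73% of changed sites were called. Values in every sample are given for the highest and lowest promoter of each cluster, the 5 promoters and 5 genes with the smallest p, regions of 20% or more and the 5 sites that differed most. The values of 1 gene are not reported here, though its sites stay in the counts and means. Other genes and the Hoxd9 region were named after their values were seen. The members and gene lists were chosen with earlier results of these data known.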

Additional observations from a re-analysis of the deposited data

How the results depend on the processing

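The counts of called Hox sites, regions, promoters and genes stayed at 0 under every alternative that was run (coverage minimum, window, gap, filters, edgeR, limma on mean site levels, single replicates left out) but 1. Fisher's exact test on reads pooled over replicates, which ignores their spread, called 7 Hox promoters (22.6%, against 23.9% of all promoters) and 7 Hox genes (18.9%, against 14.96% of all genes). The labels do not say whether a replicate number marks a shared culture or day. Over all common sites, same-numbered deviations from the group means correlated at 0.0305, 0.0153 and 0.00709. Over Hox sites they correlated at 0.0457, 0.137 and 0.118, and every sample correlated best with its own number there, though not over all common sites. With the replicate number as a block the calls were also 0. A block cannot change the difference of the means in this balanced design (0.0847 points over all Hox sites). The median Hox site had 28 to 33 reads per sample, which limits single sites most.

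The differences between group means, all small, changed sign under several settings, and the cause was not tested. With a minimum of 5 reads they were -0.290 points over all Hox sites, -0.219 in HoxB and -0.487 in HoxC. Without a change of sign, HoxA moved to -0.485 with 5 reads and HoxD to 0.531 with 20 reads, both without overlap of the groups (exact permutation p = 0.1). Within 1 kb they were -0.0536 over all Hox sites, -0.130 in HoxC and -0.0661 in HoxD, and beyond 1 kb 0.0387 in HoxA. With pooled reads HoxC was at -0.0337. Leaving out single replicates gave -0.0701 to 0.356 over all Hox sites, -0.272 to 0.0719 in HoxA, -0.0586 to 0.891 in HoxB, -0.167 to 0.600 in HoxC and -0.125 to 0.194 in HoxD. Among named promoters, the difference turned to -0.279 (Hoxa7), -0.113 (Hoxb4) and 0.186 (Hoxc12) within 5 kb, to -0.509, -0.745 and -0.372 at Hoxb7 (minimum of 5 reads, of 20 reads, and within 500 bp) and to 0.210 at Hoxd8 (20 reads). Without single replicates Hoxb7 ran from -0.375 to 0.891 and Hoxd8 from -0.520 to 0.363. With 20 reads the far Hoxb9 region was at -0.403. Without single replicates, the Hoxb9 regions ran from -1.37 to 12.2 and from -7.73 to 0.709, and the Hoxc5 region from -3.88 to 2.85. For named promoters and genes, the mean of site levels was added as an alternative after seeing the data.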
